A study of Arabidopsis thaliana with 8 samples.

Results

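The cytokinin genes examined here were 45 loci of 26716 covered by the array, chosen as probes whose annotated transcript maps to a list of loci for cytokinin synthesis, activation, breakdown, perception and signal relay. The list holds 6 isopentenyltransferases (IPT), of which IPT2 and IPT9 modify tRNA, 2 cytokinin hydroxylases (CYP735A) and 7 cytokinin riboside monophosphate phosphoribohydrolases (LOG). It also holds 7 cytokinin oxidases (CKX), 3 histidine kinase receptors (AHK) and 6 histidine phosphotransfer proteins (AHP). The rest are 4 type-B and 10 type-A response regulators (ARR). Transcripts were measured on 8 single-colour Agilent arrays of Arabidopsis thaliana seedlings in the Col-0 background. In 4 samples the seedlings carried bil1-1D, also named bzr1-1D, a dominant allele of the brassinosteroid-responsive transcription factor gene BZR1, and a 3-hour treatment with 1 µM of the brassinosteroid brassinolide preceded RNA extraction. The other 4 were wild-type seedlings given the solvent DMSO for 3 hours. Both groups had spent the preceding 14 days on 1 µM brassinazole, which blocks brassinosteroid synthesis, under a cycle of 16 h light and 8 h dark at 22 °C.

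Genotype and treatment differed together, so the effect of the allele and that of brassinolide cannot be told apart. All arrays of a group lay on 1 slide with 1 scan, so the slide cannot be told apart from the group either. Nothing in the labels says that replicates came from separate cultures, so the p-values cover only the spread among these 8 samples, part or all of which may be technical. Whole seedlings were used, and a lower transcript level from fewer cells of a type cannot be told apart from less RNA per cell.

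Cytokinins are adenine-derived hormones that promote cell division in the shoot and restrain growth of the root meristem. IPT enzymes attach the isoprenoid side chain to adenine nucleotides, CYP735A enzymes hydroxylate that chain to give trans-zeatin forms, LOG enzymes release the active free base, and CKX enzymes cleave the side chain off. The hormone is sensed by AHK receptors, which pass a phosphoryl group through AHP proteins to type-B ARRs, transcription factors that switch on target genes. Type-A ARRs are among those targets and feed back negatively on the pathway.

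Levels are given as normalized log2 signal, the log2 of a probe's processed signal over the 75th percentile of its array, so 0 is that percentile and a negative value lies below it. Signals of different probes are not compared. Changes are log2 fold changes of bil1-1D with brassinolide over wild type with DMSO, ± SE, and an adjusted p is limma's after Benjamini-Hochberg adjustment over 22082 tested genes, with a threshold of 0.05. A gene was tested if a probe of it was well above background, the scanner software's flag, on all 4 arrays of at least 1 group. The 75th percentile of processed signal was 3011 to 3807 on bil1-1D arrays and 4613 to 6128 on wild-type arrays, and 74.5% to 75.8% of spots on bil1-1D arrays and 79.5% to 80.6% on wild-type arrays were well above background. Arrays correlated at 0.990 to 0.996 within groups and at 0.967 to 0.976 between groups over all tested genes. The brassinosteroid synthesis genes DWF4 (66.3-fold lower) and CPD (14.4-fold lower), which BZR1 is known to repress, fell in bil1-1D with brassinolide. The BZR1 transcript was higher in bil1-1D with brassinolide by 0.57 ± 0.05 (1.48-fold, adjusted p = 7.02e-05). Its probe reads the transcript of either allele and does not check the genotype.

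Of the 5 green tissue markers, 2 rose, 1 fell and 2 did not pass, and their mean level was 5.99 to 6.16 on bil1-1D arrays and 5.92 to 6.24 on wild-type arrays. Of the 7 root markers, 3 rose (the phosphate transporter gene PHT1;1, the nitrate transporter gene NRT2.1 and the aquaporin gene TIP2;3), 1 fell (WOX5) and 3 did not pass, with a median change of 0.45. TIP2;3 rose by 1.20 (2.30-fold, adjusted p = 0.0107) and PHT1;1 by 0.49 (1.41-fold, adjusted p = 0.00639). The mean root marker level was -1.33 to -0.65 on bil1-1D arrays and -1.48 to -1.01 on wild-type arrays, so the groups overlapped. The called changes of green tissue markers were 1.14-fold to 1.18-fold; those of RBCS1A (0.18), LHCB1.3 (0.24) and RCA (-0.21), like that of NRT2.1 (0.59), did not pass without some single arrays, RBCS1A and LHCB1.3 turned below 0 with normexp, and WOX5 (-0.22) turned above 0 with normexp on negative-control spots. All 12 markers were well above background on all 8 arrays. Of the 4 vascular markers, PXY rose and APL fell. Of the markers of tissues that seedlings should lack, the seed gene SESA3 was not well above background on any array, OLEO2 was so on 1 wild-type array, and the flower gene AP1 was so on 0 of 4 bil1-1D and 4 of 4 wild-type arrays. The fit gave AP1 a change of -0.94 (adjusted p = 0.0136), which rests on bil1-1D signals not well above background. With those arrays raised to the lowest signal well above background, AP1 was at least 1.32-fold lower, a bound that was not tested. Its change turned above 0 with normexp on negative-control spots, where the bound does not hold. The seed gene CRA1 and the flower genes AG and AP3 were well above background on all 8 arrays; CRA1 was higher in bil1-1D by 0.77 (1.70-fold, adjusted p = 0.00462), and AG and AP3 did not pass. The part of these markers in the changes below was not tested.

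In bil1-1D with brassinolide, 23 of the 43 tested members passed the threshold, 10 higher and 13 lower, and 20 did not pass. That is a share of 53.5%, beside 55.9% of all tested genes, of which 30.2% were higher and 25.7% lower. The median change of the tested members was -0.04, against 0.03 over all genes. Changes of at least 2-fold were found in 12 members, 4 higher and 8 lower, beside 8.09% of all tested genes (3.07% higher and 5.02% lower). With the filter requiring detection on all 8 arrays, 39 members were tested, of which 10 were called higher and 10 lower (51.3%, beside 57.0% of genes called with that filter), and 4 were higher and 5 lower by at least 2-fold (beside 6.81% of genes). ARR3, ARR17 and IPT7 are left out by that filter. The 2 groups of arrays did not overlap in 22 members, beside 52.2% of all tested genes. Of the 45 listed, CKX2 (AT2G19500) and LOG2 (AT2G35990) had no array well above background and were not tested. CKX2 had processed signals of 4.5 to 5.4 on bil1-1D arrays and 3.7 to 17.7 on wild-type arrays, and LOG2 had 3.9 to 4.5 on bil1-1D arrays and 2.5 to 3.3 on wild-type arrays. A further 4 members (ARR3, ARR17, IPT1 and IPT7) had a signal well above background on every wild-type array but not on every bil1-1D array, and so were tested through the group in which they were higher.

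The largest changes were decreases in the synthesis gene IPT7 and the type-A regulator ARR3, while the largest increases were in the activation gene LOG3 and the phosphotransfer gene AHP4. Both IPT7 and ARR3 were well above background on only 2 of 4 bil1-1D arrays and were tested only through wild type. The sizes of their changes depend on the background correction, with -1.67 for IPT7 and -1.76 for ARR3 under normexp. The rank of LOG3 rests on the probe that stands for it. Its second probe gave 0.61 (adjusted p = 0.0641 over all tested probes), below the changes of LOG1 (1.18) and AHP6 (1.17). In the enzymes that make and activate the hormone (IPT, CYP735A and LOG) 2 of 14 tested members rose and 6 fell, with a median change of -0.36. These counts and the median include IPT7, which fell, and IPT1, which did not pass. Both were tested only through wild type, in which they were higher, and 12 of the 14 were well above background on all 8 arrays. From receptor to transcription factor (AHK, AHP and type-B ARR) 6 of 13 rose and 1 fell, with a median of 0.23. Over all tested genes 30.2% were higher and 25.7% lower. The relay count of 6 higher and 1 lower and the median of 0.23 both rest on the probe chosen for each gene. Second probes of AHK3 (-0.24), AHP1 (-0.79) and ARR12 (-0.38), genes counted here as not passing, were lower and passed over all tested probes. Those of AHK4 (-0.30) and AHP3 (-0.09) were below 0 and did not pass. The second probe of ARR1 (0.71) was higher and passed. With the arrays scaled to the spike-in probes, the rises of AHK2, AHP5, ARR1 and ARR10 and the falls of AHP2 and IPT9 did not pass. The difference between the enzyme classes and the relay classes was not tested.

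Of the calls among all members, 8 were lost under another scaling. With the arrays scaled to the spike-in probes instead of the 75th percentile, the median change of all genes shifted by -0.12 and stood at -0.09, and 4391 genes were called. Under that scaling 32.1% of the calls were higher, against 54.1% with the 75th percentile. There 16 members were called, 4 higher and 12 lower, and 8 lost their call. They were ARR5, CKX7, IPT9, AHK2, AHP2, AHP5, ARR1 and ARR10, with changes of 1.18-fold to 1.51-fold under the 75th percentile, and none turned direction. The shift made the changes of IPT9 (-0.42, adjusted p = 0.163) and AHP2 (-0.38, adjusted p = 0.231) larger, while the median SE over all genes was 0.213 with spike-in scaling, against 0.0784 with the 75th percentile.

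**Figure D1:**
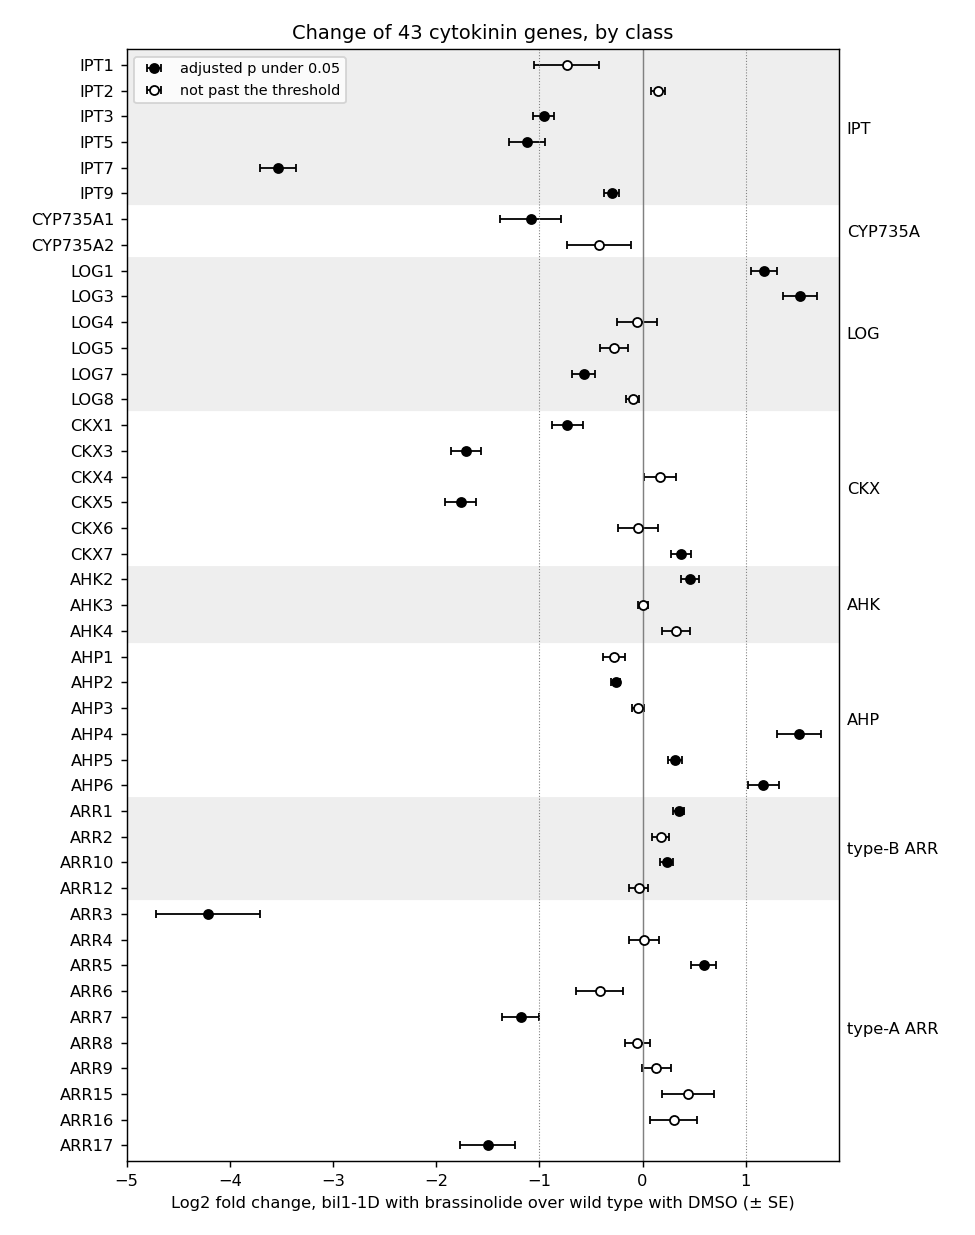
Log2 fold change (± SE, n = 4 arrays a group) of 43 members in bil1-1D with brassinolide over wild type with DMSO, from hormone synthesis at the top to type-A response regulators at the bottom. Filled points passed an adjusted p of 0.05 and dotted lines mark 2-fold; IPT7 and ARR3 lie farthest to the left, LOG3 and AHP4 farthest to the right. The LOG3 point is that of 1 of its 2 probes. IPT7 and ARR3 were well above background on only 2 of 4 bil1-1D arrays.

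Among the synthesis genes, 4 of 6 IPT members fell, 0 rose and 2 did not pass, with a median change of -0.85. IPT7 and IPT1 are in that median though tested only through wild type, in which they were higher. For this and each class count below, the shares over all tested genes were 30.2% higher and 25.7% lower. IPT7 (AT3G23630), an isopentenyltransferase that uses adenosine phosphates, had normalized log2 signals of -7.54, -7.10, -7.33 and -6.99 on the bil1-1D arrays, against -3.35, -3.53, -3.98 and -3.96 on the wild-type arrays. The groups lay far apart, and only 2 of the 4 bil1-1D arrays were well above background, with processed signals of 18.9 to 27.2 in bil1-1D and 294 to 604 in wild type. The change was -3.53 ± 0.18 (11.6-fold lower, adjusted p = 4.59e-06). With a normexp background correction, which adds an offset of 50 to every signal, it was -1.67 (adjusted p = 4.24e-06), and with normexp on negative-control spots -2.05.

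IPT5 (AT5G19040), of the same enzyme type, had -3.88, -4.42, -4.36 and -4.14 in bil1-1D, against -3.45, -3.02, -2.71 and -3.14 in wild type. Every bil1-1D array was below every wild-type array, and the change was -1.12 ± 0.17 (2.17-fold lower, adjusted p = 0.000981), or -0.74 with normexp. IPT3 (AT3G63110), the nitrate-responsive member expressed in phloem, averaged -0.86 ± 0.11 in bil1-1D and 0.10 ± 0.19 in wild type (SD, n = 4 each), a change of -0.96 ± 0.10 (adjusted p = 0.000148). IPT9 (AT5G20040), which modifies tRNA, was lower by a smaller amount, with a change of -0.30 ± 0.07 (adjusted p = 0.00906), or -0.42 with spike-in scaling, where it did not pass (adjusted p = 0.163). Its 3 probes disagreed, with changes of -0.30, -0.01 and -0.44. IPT2 (AT2G27760), the other tRNA-modifying enzyme, had a change of 0.15 ± 0.07 (adjusted p = 0.0956), and IPT1 (AT1G68460), well above background on 3 of 4 bil1-1D arrays, had -0.73 ± 0.31 (adjusted p = 0.0780).

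Both hydroxylase genes had lower means in bil1-1D, but 1 passed. CYP735A1 (AT5G38450) had -3.47, -4.79, -3.95 and -3.81 in bil1-1D, against -3.49, -2.80, -2.65 and -2.75 in wild type. The groups overlapped through the first array of each. Its change was -1.08 ± 0.30 (2.12-fold lower, adjusted p = 0.0148), and -0.71 with normexp. CYP735A2 (AT1G67110) averaged -2.28 ± 0.54 in bil1-1D and -1.85 ± 0.47 in wild type (SD, n = 4 each), a change of -0.43 ± 0.31 that did not pass (adjusted p = 0.274).

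The LOG family, which makes the free base from the nucleotide, did not move in a single direction: 2 of 6 tested members rose, 1 fell and 3 did not pass. LOG1 (AT2G28305) had -2.03, -1.88, -1.93 and -1.96 in bil1-1D, against -3.32, -3.40, -2.96 and -2.83 in wild type. The bil1-1D values were tightly grouped and all above wild type, with a change of 1.18 ± 0.13 (2.26-fold higher, adjusted p = 0.000167). LOG3 (AT2G37210) had -4.85, -5.51, -5.09 and -4.94 in bil1-1D, against -6.97, -6.53, -6.50 and -6.51 in wild type. Again the groups did not overlap, and the change was 1.53 ± 0.17 (2.89-fold higher, adjusted p = 0.000163). A second LOG3 probe gave a smaller change of 0.61 ± 0.25 (adjusted p = 0.0641 over all tested probes), the mean of both probes 1.07 (adjusted p = 0.00292), and normexp 0.68 (adjusted p = 4.94e-05).

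LOG7 (AT5G06300) was the member of this family that fell. It had -3.13, -3.49, -3.48 and -3.19 in bil1-1D, against -2.97, -2.67, -2.66 and -2.71 in wild type, with no overlap and a change of -0.57 ± 0.11 (adjusted p = 0.00293). LOG4 (AT3G53450), LOG5 (AT4G35190) and LOG8 (AT5G11950) had changes of -0.28 to -0.06 with adjusted p of 0.124 to 0.820.

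**Figure D2:**
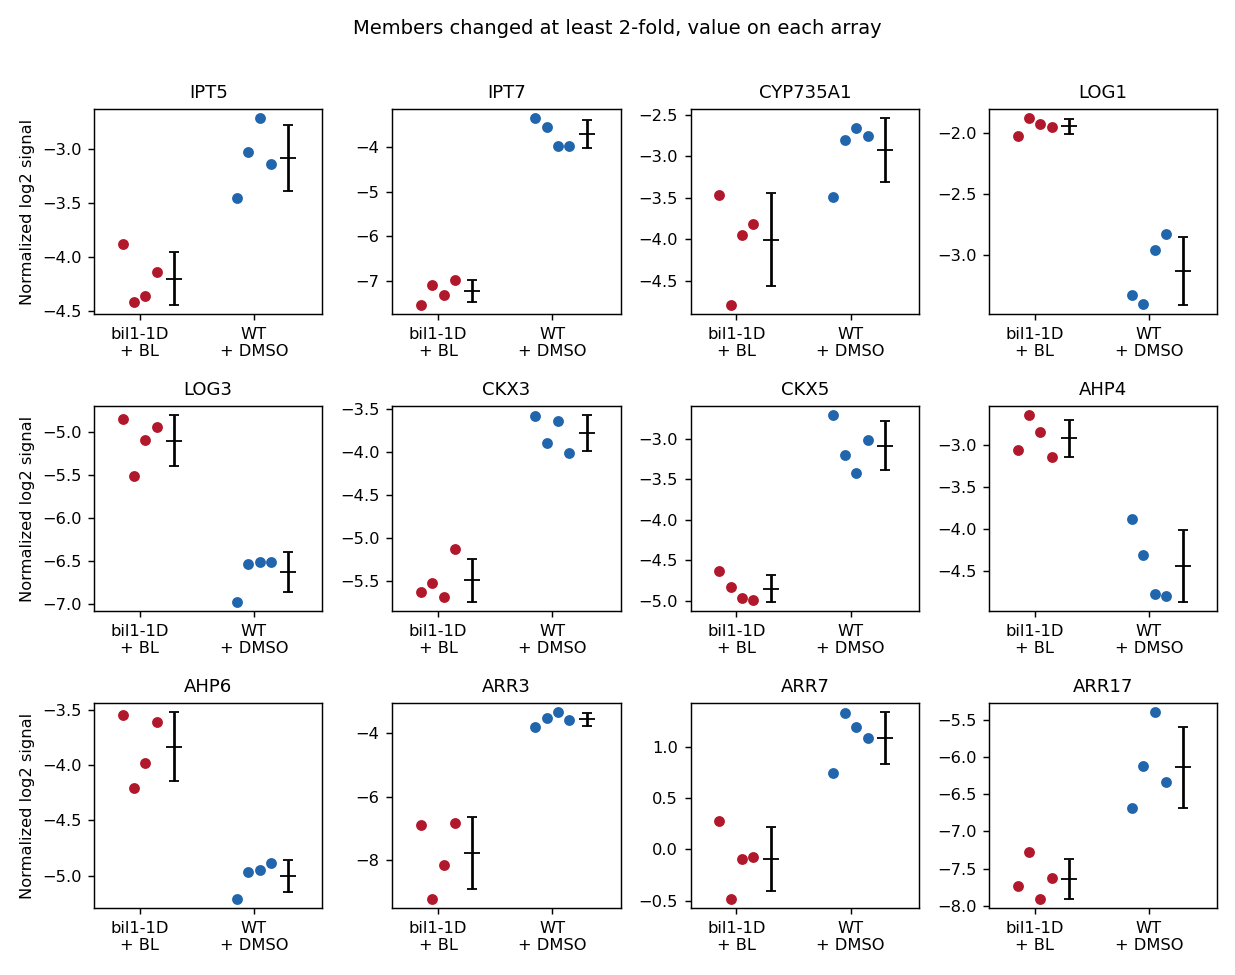
Normalized log2 signal on each array (points) for the 12 members changed at least 2-fold, with the mean and SD of each group (n = 4) beside them; bil1-1D with brassinolide is on the left of each panel and wild type with DMSO on the right, and vertical scales differ. In all but CYP735A1 the points of the 2 groups are apart, which the choice of called members with large changes favours by itself. ARR3, ARR17 and IPT7 were well above background on 2, 0 and 2 of the 4 bil1-1D arrays and were tested only through wild type.

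Of the genes that break cytokinin down, 3 of 6 tested CKX members fell, 1 rose and 2 did not pass, with a median change of -0.39. CKX3 (AT5G56970) had -5.63, -5.53, -5.68 and -5.12 in bil1-1D, against -3.57, -3.90, -3.64 and -4.01 in wild type. The groups were well apart, with a change of -1.71 ± 0.15 (3.27-fold lower, adjusted p = 5.59e-05). CKX5 (AT1G75450) had -4.62, -4.83, -4.96 and -4.98 in bil1-1D, against -2.71, -3.19, -3.42 and -3.01 in wild type. It too did not overlap, with a change of -1.76 ± 0.15 (3.39-fold lower, adjusted p = 5.86e-05). With normexp the changes were -0.88 for CKX3 and -1.16 for CKX5, and both passed.

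CKX1 (AT2G41510) averaged -3.62 ± 0.28 in bil1-1D and -2.90 ± 0.19 in wild type (SD, n = 4 each), a change of -0.73 ± 0.15 (adjusted p = 0.00404). CKX7 (AT5G21482), the cytosolic enzyme of the family, was the member that rose. It had -1.95, -1.82, -1.82 and -1.72 in bil1-1D, against -2.11, -2.07, -2.17 and -2.46 in wild type. All bil1-1D arrays lay above all wild-type arrays, and the change was 0.37 ± 0.09 (adjusted p = 0.0103), but 0.25 with spike-in scaling (adjusted p = 0.483). CKX4 (AT4G29740) and CKX6 (AT3G63440) had changes of 0.17 and -0.04 (adjusted p = 0.392 and 0.865). Decreases of at least 2-fold were thus measured both in synthesis genes (IPT5, IPT7 and CYP735A1) and in breakdown genes (CKX3 and CKX5). With the normexp background correction IPT5 (-0.74), CYP735A1 (-0.71) and CKX3 (-0.88) fell by less than 2-fold, and IPT7 (-1.67) and CKX5 (-1.16) by more.

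Of the 3 receptor genes 1 rose and 2 did not pass. AHK2 (AT5G35750) had -1.56, -1.65, -1.64 and -1.48 in bil1-1D, against -2.13, -2.16, -1.79 and -2.10 in wild type. It rose by 0.46 ± 0.09 (adjusted p = 0.00301) with no overlap, but did not pass with spike-in scaling (0.34, adjusted p = 0.304) or in a fit leaving out 3 arrays that carried the scanner software's evaluation mark (0.33, adjusted p = 0.0693). AHK3 (AT1G27320) had a change of 0.00 ± 0.05 (adjusted p = 0.952), while a second probe gave -0.24 (adjusted p = 0.00720 over all tested probes). AHK4 (AT2G01830), also named CRE1, had 0.32 ± 0.14 (adjusted p = 0.0770), and its second probe pointed down at -0.30 (adjusted p = 0.122). The directions of these 2 receptors' probes disagreed, so no direction is given for either.

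In the phosphotransfer family, 3 of 6 members rose, 1 fell and 2 did not pass, with a median change of 0.14. AHP4 (AT3G16360) had -3.05, -2.65, -2.84 and -3.14 in bil1-1D, against -3.88, -4.30, -4.76 and -4.79 in wild type. All bil1-1D arrays were higher, with a change of 1.51 ± 0.21 (2.85-fold higher, adjusted p = 0.000601). AHP6 (AT1G80100), a pseudo-phosphotransfer protein that lacks the accepting histidine and inhibits the relay, had -3.54, -4.20, -3.98 and -3.61 in bil1-1D, against -5.21, -4.96, -4.95 and -4.89 in wild type. The groups did not overlap and the change was 1.17 ± 0.15 (2.25-fold higher, adjusted p = 0.000420).

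The remaining phosphotransfer genes had smaller changes. AHP5 (AT1G03430) rose by 0.31 ± 0.07 (adjusted p = 0.00506), or 0.19 with spike-in scaling (adjusted p = 0.616). AHP2 (AT3G29350) had -0.02, 0.03, 0.01 and 0.09 in bil1-1D, against 0.24, 0.30, 0.29 and 0.32 in wild type. These values were narrowly spread and apart, with a change of -0.26 ± 0.04 (adjusted p = 0.00155), or -0.38 with spike-in scaling, where it did not pass (adjusted p = 0.231). AHP1 (AT3G21510) had -0.27 ± 0.11 (adjusted p = 0.0573), and a second probe gave -0.79 ± 0.09 (adjusted p = 0.000227 over all tested probes). AHP3 (AT5G39340) had -0.04 ± 0.06 (adjusted p = 0.573).

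Of the 4 type-B response regulators, the transcription factors at the end of the relay, 2 rose and 2 did not pass. ARR1 (AT3G16857) had -0.34, -0.36, -0.35 and -0.35 in bil1-1D, against -0.73, -0.76, -0.59 and -0.72 in wild type. Its bil1-1D arrays differed by less than the wild-type arrays did, and the change was 0.35 ± 0.05 (adjusted p = 0.000629), with 0.71 from a second probe, 0.53 from the mean of both and 0.23 with spike-in scaling (adjusted p = 0.522). ARR10 (AT4G31920) rose by 0.23 ± 0.06 (adjusted p = 0.0130), a call lost with spike-in scaling (0.11, adjusted p = 0.787) and without the marked arrays (0.20, adjusted p = 0.129). ARR2 (AT4G16110) had 0.17 ± 0.09 (adjusted p = 0.119) and ARR12 (AT2G25180) had -0.04 ± 0.09 (adjusted p = 0.749). The second ARR12 probe gave -0.38 (adjusted p = 0.00852 over all tested probes).

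Type-A response regulators, the feedback inhibitors that cytokinin induces, did not move together: of 10 members, 1 rose, 3 fell and 6 did not pass, with a median change of -0.02. Of those that fell, ARR3 and ARR17 were tested only through wild type, in which they were higher. ARR3 (AT1G59940) had -6.90, -9.22, -8.15 and -6.82 in bil1-1D, against -3.81, -3.51, -3.34 and -3.57 in wild type. It was well above background on 2 of 4 bil1-1D arrays, with processed signals of 32, 5.8, 10.7 and 30.6, against 438 to 458 in wild type. The change was -4.22 ± 0.50 (18.6-fold lower, adjusted p = 0.000262). With dim arrays raised to the lowest signal well above background on that array it was -3.60 (12.1-fold lower), with normexp -1.76, and with normexp on negative-control spots -2.21.

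ARR7 (AT1G19050), a regulator known from the shoot meristem, had 0.27, -0.49, -0.09 and -0.07 in bil1-1D, against 0.74, 1.33, 1.19 and 1.08 in wild type. Its groups did not overlap, and the change was -1.18 ± 0.18 (2.27-fold lower, adjusted p = 0.000812). ARR17 (AT3G56380) had -7.74, -7.28, -7.91 and -7.63 in bil1-1D, where it was not well above background on any array, against -6.69, -6.13, -5.40 and -6.34 in wild type. The fit to these signals gave a change of -1.50 (adjusted p = 0.00182). Without a normexp correction ARR17 was at least 2.49-fold lower (-1.31 in log2), a bound that was not tested. The bound sets each bil1-1D array to the higher of its own signal and the lowest signal well above background there. Normexp on negative-control spots left a change of -0.23 that did not pass (adjusted p = 0.286), and normexp on local background -0.41 (adjusted p = 0.00674). Both are smaller than the bound, which thus does not hold with normexp.

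ARR5 (AT3G48100) was the type-A gene that rose, with -1.84, -2.16, -2.0 and -1.91 in bil1-1D, against -2.90, -2.52, -2.34 and -2.52 in wild type. All bil1-1D arrays were above all wild-type arrays, and the change was 0.59 ± 0.13 (adjusted p = 0.00459), or 0.47 with spike-in scaling (adjusted p = 0.121). The 6 that did not pass (ARR4 (AT1G10470), ARR6 (AT5G62920), ARR8 (AT2G41310), ARR9 (AT3G57040), ARR15 (AT1G74890) and ARR16 (AT2G40670)) had changes of -0.42 to 0.44 with adjusted p of 0.154 to 0.924. Without the third wild-type array, the highest of its group for both, ARR15 and ARR16 passed with changes of 0.66 (adjusted p = 0.0196) and 0.54 (adjusted p = 0.00521).

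**Figure D3:**
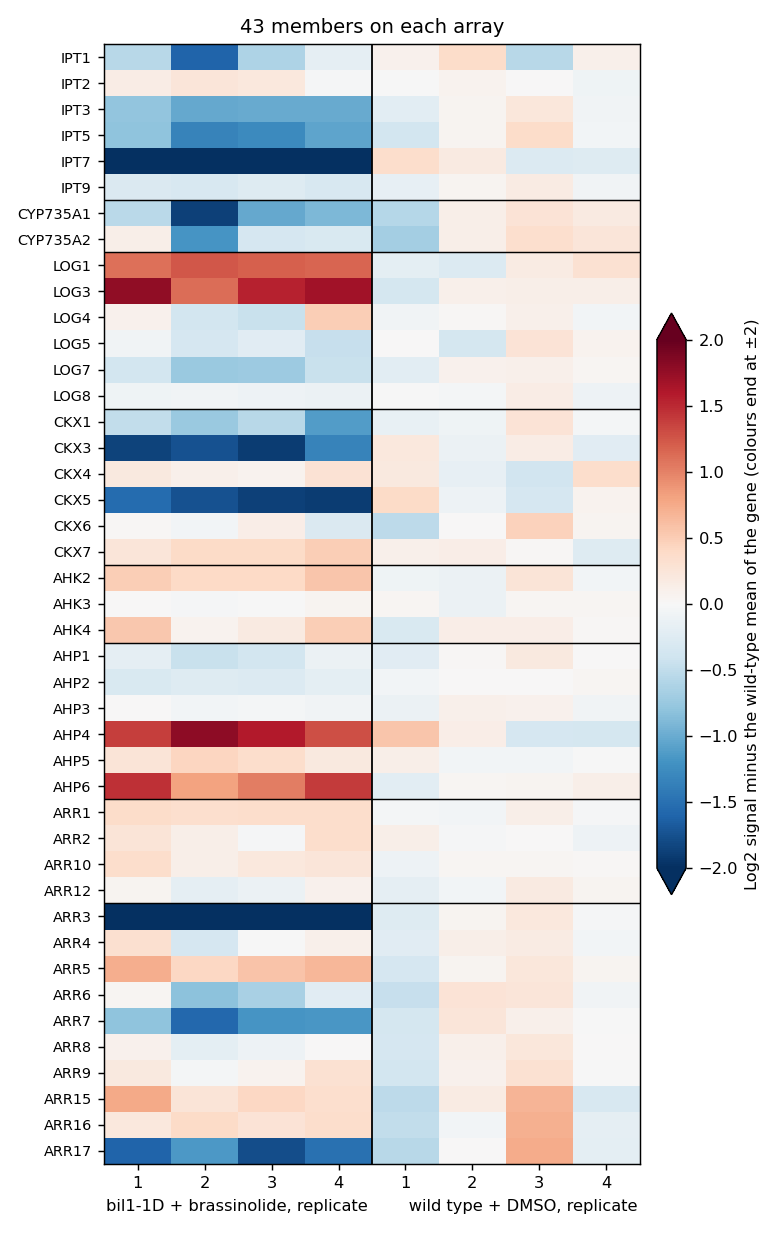
Log2 signal of 43 members on each of the 8 arrays as a difference from the gene's wild-type mean (red higher, blue lower, colours end at 2 either way), bil1-1D with brassinolide on the left and wild type with DMSO on the right, with lines between the gene classes. IPT7 and ARR3, each well above background on only 2 of the bil1-1D arrays, are beyond the colour range on all 4 of them. The third wild-type array is redder than its group in many rows.

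Type-A regulators form sister pairs of close sequence, and within an array the ratio of a pair's signals does not depend on scaling. The ratio was compared for the 3 pairs with both genes well above background on all 8 arrays, which leaves out ARR3 with ARR4 and ARR17 with ARR16. Taken as a difference from the wild-type mean, the log2 ratio of ARR5 to ARR6 was 0.69, 1.23, 1.22 and 0.89 on the bil1-1D arrays and -0.22 to 0.12 on the wild-type arrays. Its mean was higher in bil1-1D by 1.01 ± 0.15. The ARR7 to ARR15 ratio was -1.57, -1.82, -1.60 and -1.49 on the bil1-1D arrays and -0.57 to 0.31 on the wild-type arrays, a difference of -1.62 ± 0.21. The ARR8 to ARR9 ratio differed least, by -0.18 ± 0.05, and by -0.12 without the marked arrays. The groups did not overlap in these 3 pairs, and each exact two-sided permutation test gave p = 0.0286, also after Benjamini-Hochberg adjustment over the 3 pairs. That is the smallest p that 4 arrays against 4 allow, and groups that do not overlap give it by themselves. The tests thus add nothing to the separation. Groups also did not overlap in 52.2% of all tested genes taken singly, and how often ratios of other pairs separate was not tested. A ratio shows unequal change of the 2 genes, and whether a probe also reads the sister transcript was not tested.

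**Figure D4:**
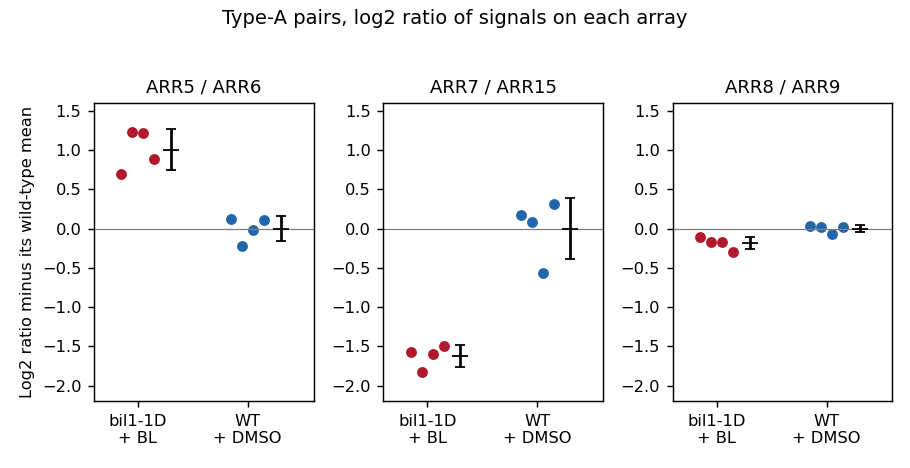
Log2 ratio of the signals of 3 type-A sister pairs on each array, minus the pair's mean over the wild-type arrays (points), with the mean and SD of each group (n = 4). Bil1-1D with brassinolide is left of wild type with DMSO in each panel; the ratio is lower in bil1-1D for ARR7 to ARR15 and ARR8 to ARR9 and higher for ARR5 to ARR6.

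A further 43 genes of the pathway were listed outside the 45, and 32 of them were tested: 12 rose, 7 fell and 13 did not pass, with a median change of 0.17. That is 59.4% called, beside 55.9% of all tested genes (30.2% higher and 25.7% lower). At least 2-fold changes were measured in 8 that were well above background on all 8 arrays, 4 higher and 4 lower, beside 6.81% of genes with that filter. With ARR18, which has only a bound, given below, the fit counted 9, beside 8.09% of all tested genes. Among the KMD F-box genes, whose proteins mark type-B regulators for degradation, 3 of 4 rose: KMD3 by 1.33 ± 0.10 (adjusted p = 3.41e-05), KMD4 by 0.86 ± 0.14 (adjusted p = 0.00114) and KMD1 by 0.65 ± 0.14 (adjusted p = 0.00532). KMD2 had 0.20 ± 0.08 (adjusted p = 0.0566). Of 6 cytokinin response factors, AP2-type transcription factors, CRF3 fell by 1.21 ± 0.21 (adjusted p = 0.00196), CRF4 fell by 1.31 ± 0.16 (adjusted p = 0.000321), CRF1 fell by 0.29 ± 0.10 (adjusted p = 0.0308) and 0 rose. The CRF1 call was lost with quantile normalization, median scaling, spike-in scaling, both normexp corrections and the authors' value table (changes of -0.41 to -0.15, adjusted p = 0.0505 to 0.165) and without bil1-1D replicate 1 or 2 or wild-type replicate 2, 3 or 4 (adjusted p = 0.0651 to 0.0778).

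Of 6 transport genes 3 rose and 1 fell. The purine permease genes PUP2 (1.43 ± 0.16, adjusted p = 0.000206) and PUP1 (1.07 ± 0.16, adjusted p = 0.000817) and the plasma membrane importer gene PUP14 (0.60 ± 0.08, adjusted p = 0.000604) were higher in bil1-1D. ABCG14, whose transporter loads trans-zeatin forms for delivery from root to shoot, had -0.63 ± 0.23 in bil1-1D and 0.69 ± 0.28 in wild type (SD, n = 4 each), a change of -1.32 ± 0.16 (adjusted p = 0.000288). UGT85A1, a zeatin O-glucosyltransferase, fell by 1.18 ± 0.16 (adjusted p = 0.000509). Among other type-B regulators, ARR11 rose by 1.11 ± 0.15 (adjusted p = 0.000552). ARR18 had a signal well above background on 0 of 4 bil1-1D arrays, and the fit to those signals gave -1.43 (adjusted p = 0.000770). With those arrays raised to the lowest signal well above background, ARR18 was at least 1.42-fold lower, a bound that was not tested. With normexp on negative-control spots its change turned to 0.10 and did not pass (adjusted p = 0.318), so the bound does not hold there.

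Genes known to respond to cytokinin also moved in both directions. The D-type cyclin gene CYCD3;1 rose by 0.62 ± 0.09 (adjusted p = 0.000801) and the GATA factor gene GNC by 0.61 ± 0.13 (adjusted p = 0.00439), whereas its relative CGA1 fell by 0.75 ± 0.19 (adjusted p = 0.0114). LBD3 had 0.15 ± 0.12 (adjusted p = 0.319). Without the marked arrays neither GNC nor CGA1 passed (adjusted p = 0.113 for CGA1). With spike-in scaling 8 of these pathway genes lost their call. Their changes there were 0.16 for AHK1, -0.41 for CRF1, 0.48 for PUP14, 0.09 for UGT76C1, 0.32 for ADK1, 0.53 for KMD1 and 0.50 for CYCD3;1, and GNC was the eighth.

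**Figure D5:**
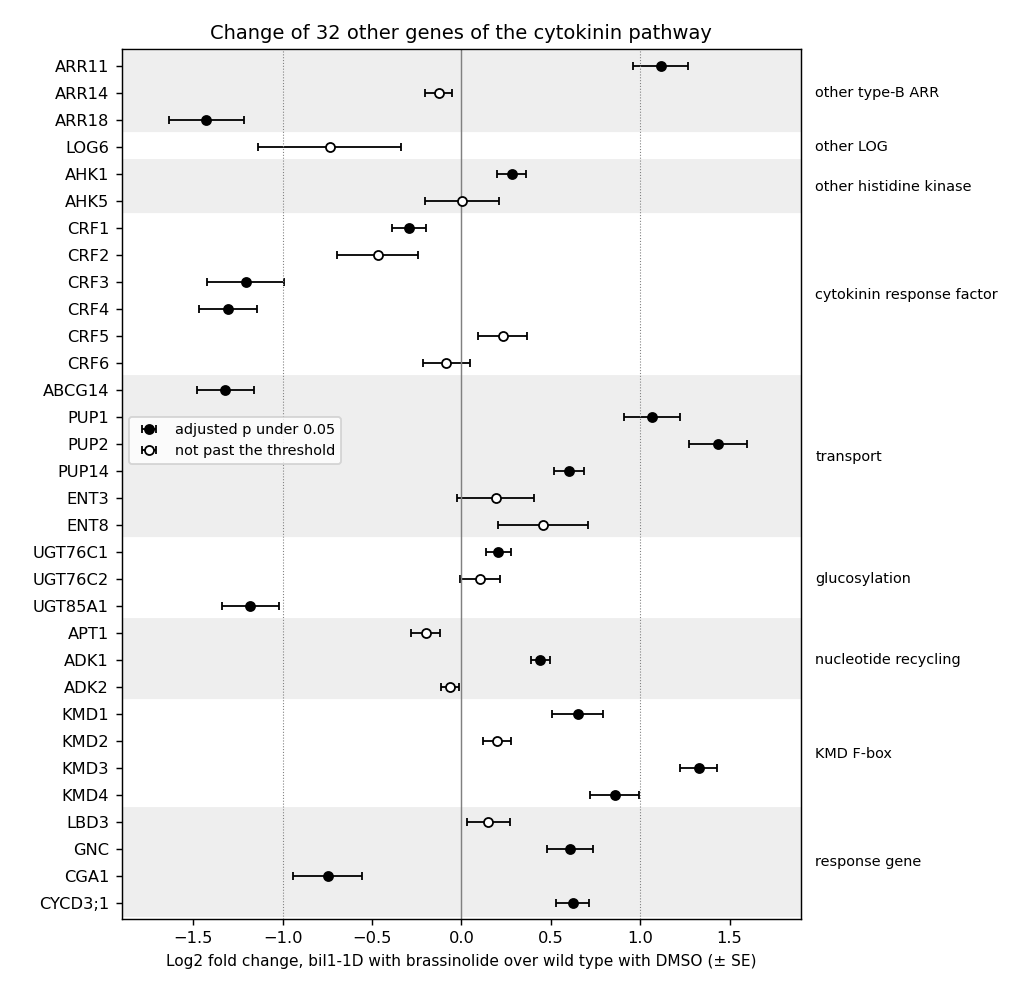
Log2 fold change (± SE, n = 4 arrays a group) of 32 pathway genes outside the 45, bil1-1D with brassinolide over wild type with DMSO, by function. Filled points passed an adjusted p of 0.05 and dotted lines mark 2-fold; KMD3, ARR11, PUP1 and PUP2 lie past the right line and CRF3, CRF4, ABCG14 and UGT85A1 past the left. The ARR18 point rests on bil1-1D signals not well above background, for which the bound is 1.42-fold. That bound does not hold with normexp on negative-control spots.

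Within groups, single arrays stood at the edge for many members at once. The second bil1-1D array was the lowest of its group for 23 of 43 members and for 5 of 7 root markers. The first wild-type array was the lowest of its group for 27 of 43 members, 6 of 7 root markers and 5 of 5 green tissue markers, and the third was the highest for 26 of 43 members and 5 of 5 green tissue markers. Leaving out any array in turn ended no call among the 23 called members.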

How the data were processed

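The deposited scanner files give the intensity of every spot on a linear scale, per the file headers from Agilent Feature Extraction 11.5.1.1 and array design 021169, whereas version 9.1.3.1 is named in the submitters' processing notes. Processed signals are background-subtracted and detrended but not normalized between arrays. Detection, saturation and outlier flags were used as deposited. The value table deposited by the authors, read as natural log values normalized between arrays, served only as an alternative. Its base is inferred from a slope of 0.969 to 1.00 against the natural log of processed signal, and the steps that made it are not given in the sources used here. Each of its columns had a median of -0.97, and its centring is unknown.

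Per the labels' protocols, Cy3 labelling started from 200 ng of total RNA. Of 43603 probes in 43803 spots (controls aside), 36163 were matched to 1 locus by accession in the RefSeq gene table and 7440 to none. In all, 93 outlier spots were dropped, and 0 spots were saturated. Signals were divided by the array's 75th percentile, set to 0.001 of it where lower, and taken to log2. Where a gene had several tested probes, as could be so for 10 of the 45 members, the one with the highest mean stood for it. Groups came from the labels. They were compared by lmFit and eBayes without covariates (limma 3.58.1, R 4.3.3), with Benjamini-Hochberg adjustment, in a script first tested on simulated data; Python 3.11.15 did the rest. The number of arrays limits the precision.

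Values on every array are given for each member called with a change of at least 2-fold and for the most changed called member of each class in each direction, with others by change or range; pathway genes are named where called and changed at least 2-fold, and the other pathway genes named were chosen after their values were seen. The members and lists were chosen with earlier results of these data known. The filter of type-A pairs on detection, their tests, and the values of single probes and of dim arrays at the detection limit were added after seeing the data. The files hold no mean spot signal, so normexp was run on the median signal. No sequences were used here.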

Additional observations from a re-analysis of the deposited data

Results flagged for a closer look

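In 4 of the 86 groups of 4 arrays that the members give, 1 array lay far from the other 3 by Dixon's criterion, which chance gives in about 1 of 20 groups. IPT3 had -0.69 on the first bil1-1D array, against -0.92 to -0.90 on the others of that group. LOG3 had -6.97 on the first wild-type array, against -6.53 to -6.50 on the others. AHK2 had -1.79 on the third wild-type array, against -2.16 to -2.10 on the others. AHK3 had -0.64 on the second wild-type array, against -0.49 to -0.48 on the others. The changes of IPT3, LOG3 and AHK2 passed without that array as well.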

How the results depend on the processing

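Of the 23 called members, 14 kept their call and direction under each of the 22 alternatives that gave a value for them, and 0 turned direction. Of the 20 uncalled members, 9 passed under some alternative. With spike-in scaling 4391 genes were called (1410 higher and 2981 lower), against 12344 (6673 higher and 5671 lower) with the 75th percentile, and 4 members were higher, against 10. Under that scaling 8 called members did not pass, and IPT1 did (-0.86, adjusted p = 0.0345). Leaving out each array gave 10749 to 12348 genes (5740 to 6748 higher, 5009 to 5673 lower) and 23 to 26 members, 10 to 12 higher and 13 to 15 lower. Under the other alternatives 20 to 27 members were called, with 20 (10 higher and 10 lower) under the well-above-background filter on all 8 arrays. That filter gave no value for ARR3, ARR17, IPT1 and IPT7. AHP1 passed under 8 alternatives and ARR2 under 6.

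Same-numbered arrays did not deviate together (r = -0.10, -0.28, 0.17 and 0.04), so the replicate numbers were not taken as pairs. With the replicate block 11337 genes and 22 members were called, 9 higher and 13 lower, and ARR10 did not pass (adjusted p = 0.0526). Each slide held 1 group, so a slide block could not be fitted.

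RBCS1A was -0.00970 with quantile normalization, -0.0276 with normexp and -0.0195 in the authors' value table, LHCB1.3 was -0.0169 with normexp, and, of the markers and the other pathway genes, WOX5 (0.0332), AP1 (0.0737) and ARR18 (0.0989) turned with normexp on negative-control spots; none of these values passed. Signals near background limit ARR3, ARR17, IPT1, IPT7 and ARR18.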
